A study of Mus musculus with 9 samples.

Results

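The 10 mouse genes described here make, load and control major histocompatibility complex (MHC) class I molecules: B2m, H2-K1, H2-D1, H2-Q7, H2-T23, Tap1, Tap2, Tapbp, Erap1 and Nlrc5. They were listed by name, with earlier results of these data known, and all 10 were found, 1 row each, among the 55322 genes of an RNA sequencing table of 9 libraries. The libraries fell into 3 groups of 3. B cells with CD11b (CD11b+) and without it (CD11b-) were sorted from the bone marrow of wild-type mice 48 h after an intraperitoneal injection of lipopolysaccharide (LPS) at 5 mg/kg and, by the study's protocol for marrow B cells, after depletion of cells carrying CD3, CD4, CD8, Gr-1, NK1.1 or TER119. Peritoneal macrophages (PMs), positive for CD11b and F4/80, came from naive wild-type mice that received no LPS. No untreated B cells were among the libraries, so what LPS does to these genes was not measured, and between B cells and PMs the cell type, the tissue and the treatment cannot be told apart. The sources used here do not give the ages or sexes of the mice.

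MHC class I molecules display peptides from inside the cell to CD8 T cells. A heavy chain pairs with beta-2 microglobulin in the endoplasmic reticulum, the TAP transporter pumps in peptides from the cytosol, tapasin holds the empty molecule at the transporter, and an aminopeptidase trims peptides to a length that fits the groove. Nearly all nucleated cells carry class I molecules, and lymphocytes and macrophages carry many. The transactivator Nlrc5 joins factors at a conserved promoter module, the W/S, X and Y boxes, while interferons and NF-kB add further induction through their own sites.

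Each library held between 18014658 and 35251215 reads on genes. The 10 genes took between 0.995% and 1.58% of them. The 8 B cell markers used here, Cd79a and Cd79b among them, summed to between 4139 and 5575 FPKM (fragments counted per exon length and library depth) in the 6 B cell libraries and to between 50.04 and 79.8 FPKM in the PMs. The 13 monocyte and macrophage markers summed to between 20666 and 55184 FPKM in the PMs, lowest in PM replicate 1, to between 36.4 and 48.7 FPKM in CD11b- B cells and to between 86.1 and 286 FPKM in CD11b+ B cells. The 10 neutrophil markers summed to between 217 and 1576 FPKM in CD11b+ B cells and to between 1.74 and 3.01 FPKM in CD11b- B cells. Of them, 3 (S100a8, S100a9 and Retnlg) were called higher in CD11b+ B cells, against 8 by edgeR and 9 by DESeq2. With a block for the number in the descriptions, 0 were called. Not every library had a partner of its number, and those without one add nothing to that test. The median log2 fold change of the 10 markers was 3.56 in that fit and 4.16 in the main fit. The 10 genes with most reads took between 13.3% and 18.2% of reads in the PMs and between 6.92% and 9.91% in the B cells, so the depth-scaled values of B cells and PMs rest on libraries of unlike make-up. Plasma cell markers (5 genes) summed to between 180 and 568 FPKM in CD11b+ against between 62.3 and 107 FPKM in CD11b- B cells, and erythroid markers (4 genes) to between 27.3 and 38.2 FPKM against between 1.35 and 20.9 FPKM, without overlap in either. T and NK cell markers (8 genes) summed to at most 21.1 FPKM and dendritic cell markers (5 genes) to at most 2.39 FPKM in the B cell libraries. Of these 4 lists limma called 0 genes between the B cell groups, edgeR 0, and DESeq2 Jchain and Cd4, both higher in CD11b+ B cells. Of the monocyte and macrophage markers limma called 0, edgeR 1 (Csf1r) and DESeq2 7, all higher in CD11b+ B cells, and of the B cell markers each called 0. When the libraries were set to a common scale by the median ratio of genes instead, the log2 scale of CD11b+ B cells fell by 0.50 against the PMs and that of CD11b- B cells fell by 0.54. Because 1 is added to each FPKM before the log, low genes moved less than this, and the median log2 fold change of all genes went from 0.25 to 0.12 and from 0.24 to 0.08.

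Of the 10 genes, 7 lie on chromosome 17 and belong to the mouse MHC (positions from GENCODE M21, build GRCm38). H2-K1 spans chr17:33996017-34000347 on the minus strand, and H2-D1 (chr17:35262730-35267499), H2-Q7 (chr17:35439155-35443773), Tap1 (chr17:34187553-34197225), Tap2 (chr17:34203527-34216321) and Tapbp (chr17:33915899-33929292) lie on the plus strand. H2-T23 spans chr17:36029773-36032855 on the minus strand. B2m (chr2:122147686-122153083), Erap1 (chr13:74639568-74693201) and Nlrc5 (chr8:94434356-94527272), all on the plus strand, lie outside the complex. Exons of Tap1 and of the proteasome subunit gene Psmb9 overlap on opposite strands, as do those of Erap1 and Cast, and the sources do not say whether counting used the strand.

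The promoters of 8 members were read from RefSeq (build GRCm38.p6), as windows of 300 bases that run from 250 before the transcription start to 50 after it. They are shown because 3 heavy chain genes and B2m share a stretch there. The core of the X2 box, TGACG, followed on the same strand within 40 bases by the core of the Y box, ATTGG, was present in 4 of these 8 genes and in 1.02% of all 32851 windows. Capitals mark both cores in the following stretches, at chr2:122147609-122147638, chr17:34000359-34000388, chr17:35262993-35263022 and chr17:35439091-35439119, each written 5′ to 3′ on the strand of its gene.
B2m: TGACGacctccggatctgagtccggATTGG
H2-K1: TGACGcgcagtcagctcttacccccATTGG
H2-D1: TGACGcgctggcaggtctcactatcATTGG
H2-Q7: TGACGtgtaacagttctcacccctATTGG
The starts of the cores lay 25 bases apart in B2m, H2-K1 and H2-D1 and 24 bases apart in H2-Q7. The pair ended 49 bases before the RefSeq start in B2m, 12 before the upstream RefSeq start in H2-K1, 72 before it in H2-D1 and 36 before it in H2-Q7.

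Longer stretches before the start are given for H2-K1, H2-Q7 and B2m, whose stretches hold no annotated exon. Capitals mark every match to TGACG, to ATTGG, to the NF-kB site core GGGNNTTCC and to the interferon-stimulated response element core GAAANNGAA, each searched on both strands. The stretches are chr17:34000348-34000597 (minus strand) for H2-K1, chr17:35438905-35439154 (plus strand) for H2-Q7 and chr2:122147437-122147685 (plus strand) for B2m.
H2-K1: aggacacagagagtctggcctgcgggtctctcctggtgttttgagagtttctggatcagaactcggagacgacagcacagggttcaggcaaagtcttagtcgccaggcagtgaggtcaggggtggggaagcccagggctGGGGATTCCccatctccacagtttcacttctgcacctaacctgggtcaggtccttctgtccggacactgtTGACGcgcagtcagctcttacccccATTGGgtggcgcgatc
H2-Q7: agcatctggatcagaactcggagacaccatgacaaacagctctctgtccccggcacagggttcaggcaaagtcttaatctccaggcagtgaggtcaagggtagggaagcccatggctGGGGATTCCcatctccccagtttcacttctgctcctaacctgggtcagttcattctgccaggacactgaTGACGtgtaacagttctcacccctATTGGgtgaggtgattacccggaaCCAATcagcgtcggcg
B2m: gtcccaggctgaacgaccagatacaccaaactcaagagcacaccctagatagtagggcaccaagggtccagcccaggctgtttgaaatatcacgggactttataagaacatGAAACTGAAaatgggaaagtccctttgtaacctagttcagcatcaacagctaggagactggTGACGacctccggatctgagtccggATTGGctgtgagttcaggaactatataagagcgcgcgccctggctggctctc
The NF-kB core was matched in H2-K1, H2-D1 and H2-Q7, by the same letters GGGGATTCC, and in 5.82% of all windows. The interferon-stimulated core was matched in B2m, H2-T23 and Erap1 and in 8.56% of all windows, with matches in Erap1 that overlap each other. TGACG alone was found in 5 of the 8 members and in 20.8% of windows, and ATTGG in 7 of the 8 and in 37.4%. Tap1 held TGACG 86 bases before its start and, far from it, ATTGG on the other strand. These matches are letters in a window and were not tested for binding. Only these fixed letters were searched, so a site spelled otherwise or of another length was not marked or counted. A gene without a match may thus still hold an NF-kB or interferon site, H2-K1, H2-Q7 and B2m among them. In B2m the letters gggaaagtccc, shortly after GAAACTGAA, were not matched by the fixed NF-kB core on either strand. Whether they form an NF-kB site of another length was not tested, so B2m is not shown to lack one.

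**Figure D1:**
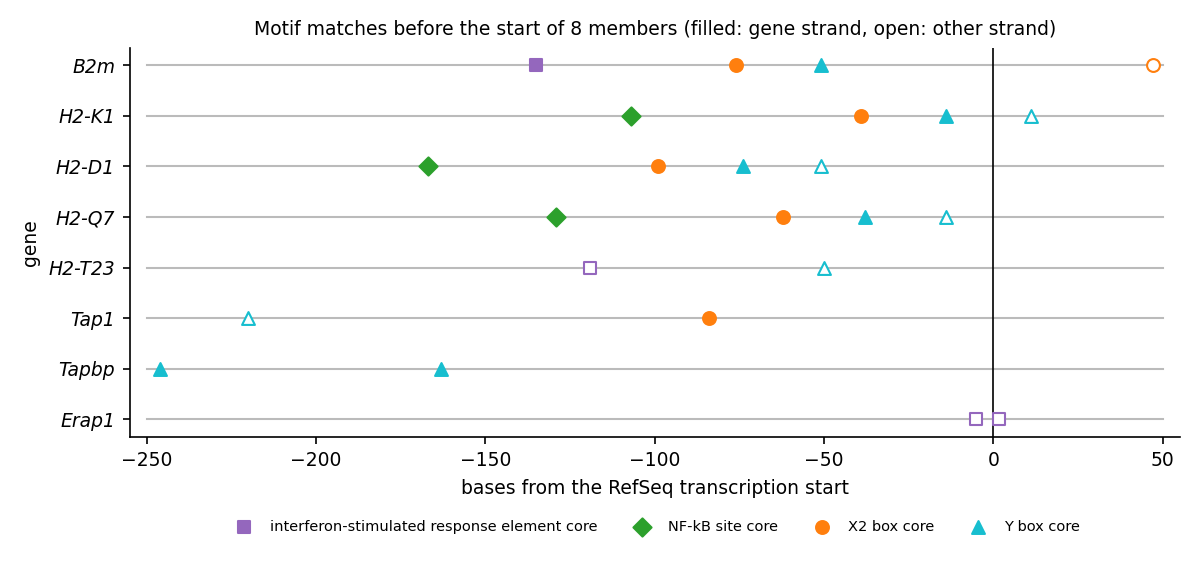
Matches to 4 motif cores between 250 bases before and 50 bases after the RefSeq transcription start (x axis, bases) of 8 members (y axis), filled on the gene's strand and open on the other. H2-K1, H2-D1 and H2-Q7 show the NF-kB core, the X2 core and Y cores in the same order, and B2m shows the X2 and Y cores only after an interferon-stimulated core. Sites spelled otherwise or of another length were not searched, so a gene without a mark may still hold one.

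The order of levels was read from FPKM, which is per exon length. H2-D1 and B2m, the light chain, stood first in all 3 groups, with means of 2656 ± 478 and 1997 ± 305 FPKM (SD, n = 3) in the PMs, 2426 ± 240 and 2140 ± 120 FPKM in CD11b- B cells, and 2101 ± 219 and 2387 ± 475 FPKM in CD11b+ B cells. Their libraries overlapped in each group, so their order is not set, and both ranked between 12 and 24 among all genes. H2-K1 came next without overlap, at rank 92 in the PMs, 22 in CD11b- B cells and 23 in CD11b+ B cells, then H2-T23 and Tapbp. Below these the order differed. In both B cell groups H2-Q7 and Tap1 overlapped each other and lay above Tap2, and Erap1 and Nlrc5 overlapped at the bottom. In the PMs Tap2 lay above Tap1, and H2-Q7, at 4.08 ± 0.74 FPKM, had the lowest mean, overlapping Nlrc5.

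**Figure D2:**
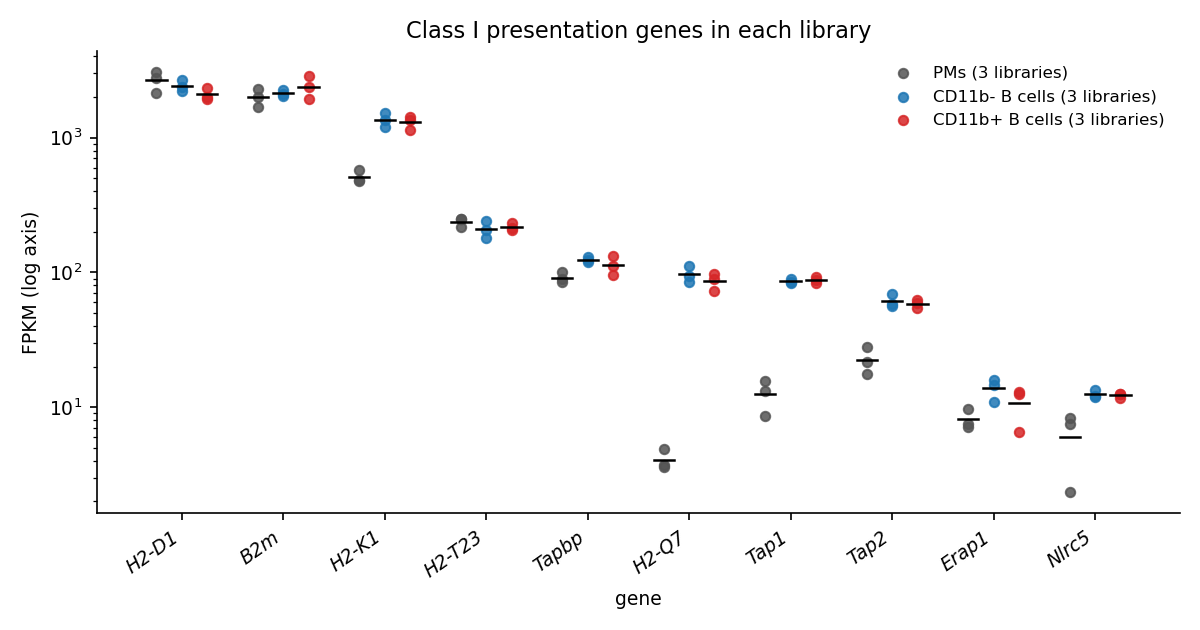
FPKM (y axis, log scale) of the 10 class I presentation genes (x axis) in each of the 9 libraries, 1 point a library and a black line at the mean of 3. The PM points lie below all 6 B cell points for H2-K1, H2-Q7, Tap1, Tap2 and Nlrc5, whereas both B cell groups lie over each other for every gene.

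The first comparison asked whether CD11b+ B cells of the LPS-treated marrow differed from CD11b- B cells in the RNA of class I presentation. None of the 10 genes passed the test: limma called 0 higher and 0 lower, with adjusted p between 0.727 and 0.969, 0 had an unadjusted p under 0.05, and edgeR and DESeq2 on the recovered reads called 0 as well. Over all 21778 genes tested, 0.0689% were called higher and 0% lower, the latter against 661 lower genes with an unadjusted p under 0.05 and 64 called lower by DESeq2. For 0 of the 10 genes did the libraries of both groups lie apart, against 14.9% of all genes. The median log2 fold change of the 10 was -0.06, with 7 below 0 and 3 above, beside 0.03 for all genes.

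Among the heavy chains, H2-K1, a classical molecule that presents to CD8 T cells, was at 1192, 1350 and 1527 FPKM in the CD11b- libraries and at 1137, 1352 and 1421 FPKM in the CD11b+ libraries. H2-D1, the other classical heavy chain of C57BL/6 mice, was at 2221, 2368 and 2689 FPKM in CD11b- and at 2011, 2351 and 1942 FPKM in CD11b+ B cells. Both pairs of groups overlapped, and the log2 fold changes were -0.06 (95% interval -0.58 to 0.47) and -0.21 (-0.80 to 0.39). The non-classical H2-Q7, a Qa-2 heavy chain, was at 84.8, 94.3 and 112 FPKM in CD11b- and at 73.2, 96.7 and 88.8 FPKM in CD11b+ B cells. H2-T23, which encodes Qa-1, a ligand of NK cell receptors, was at 181, 207 and 242 FPKM against 215, 208 and 231 FPKM. Their groups overlapped too, with log2 fold changes of -0.17 (-0.54 to 0.21) and 0.06 (-0.30 to 0.42). B2m was at 2037, 2272 and 2111 FPKM in CD11b- B cells and at 2369, 1921 and 2870 FPKM in CD11b+ B cells. The CD11b+ libraries were the more spread, on both sides of the CD11b- ones, and the log2 fold change was 0.14 (-0.49 to 0.77).

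The transporter genes had the narrowest intervals of the 10. Tap1 was at 83.3, 89.0 and 85.0 FPKM in CD11b- B cells and at 83.3, 93.1 and 87.2 FPKM in CD11b+ B cells, a log2 fold change of 0.03 (-0.24 to 0.31). Tap2, its partner in the dimer, was at 56.4, 58.7 and 68.6 FPKM against 54.0, 62.2 and 59.2 FPKM, a log2 fold change of -0.06 (-0.37 to 0.24). For Tap1 the interval thus reached no further than 0.31 in either direction. Tapbp, which encodes tapasin, was at 123, 120 and 129 FPKM against 112, 132 and 96.1 FPKM, with a log2 fold change of -0.14 (-0.48 to 0.21). Erap1, the aminopeptidase of the endoplasmic reticulum, was at 15.9, 14.6 and 10.9 FPKM against 12.5, 13.0 and 6.58 FPKM. CD11b+ replicate 3 was the lowest of the 6 libraries for Erap1, and its log2 fold change of -0.37 (-0.99 to 0.24) was the furthest from 0 of the 10 with all libraries in. Without that library it was -0.09, and with any other left out it was between -0.53 and -0.27. The transactivator Nlrc5 was at 12.0, 12.1 and 13.3 FPKM against 12.5, 11.7 and 12.5 FPKM, with a log2 fold change of -0.02 (-0.34 to 0.30). These intervals give the changes that 3 libraries a group do not exclude, and they are no limit of detection. In bulk libraries fewer cells that carry an RNA and less of it in each cell cannot be told apart, and the part of the neutrophil, macrophage, plasma cell and erythroid RNA of the CD11b+ libraries in these values was not tested.

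**Figure D3:**
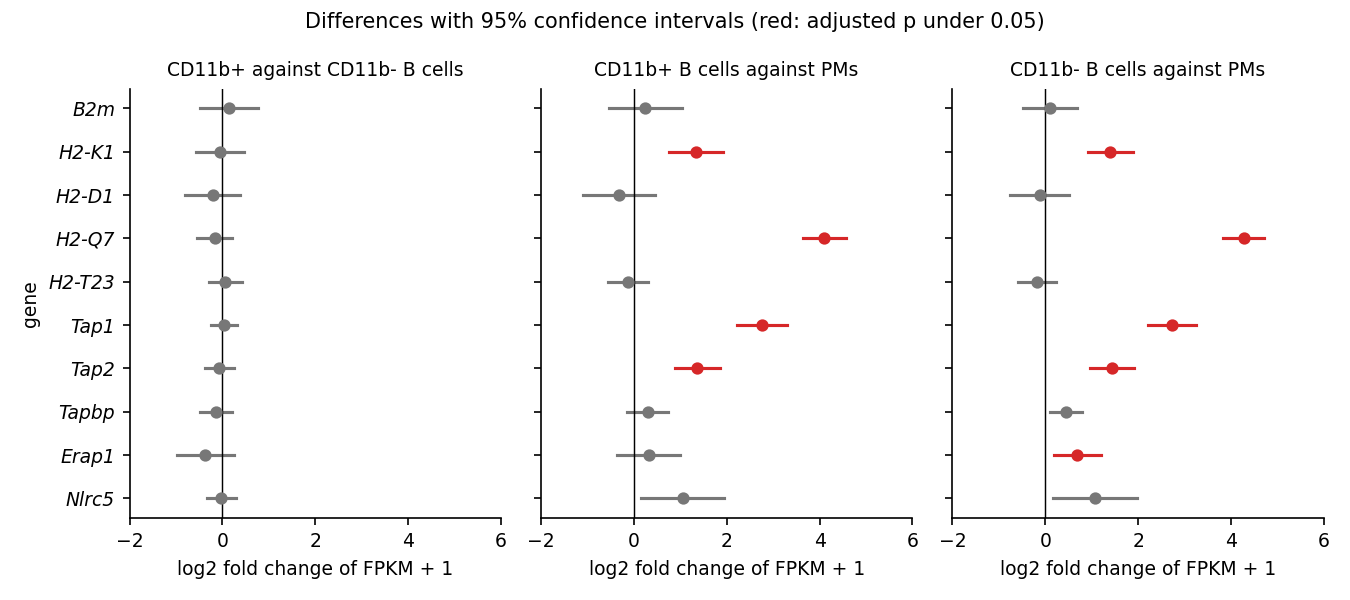
Log2 fold change of FPKM + 1 (x axis) with its 95% confidence interval for each of the 10 genes (y axis) in the 3 comparisons, red where the adjusted p was under 0.05. All 10 intervals cross 0 between the B cell groups, and H2-K1, H2-Q7, Tap1 and Tap2 stand to the right of 0 in both comparisons with PMs.

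Against PMs, the reference for macrophages in the study, CD11b+ B cells had higher H2-K1, H2-Q7, Tap1 and Tap2, so 4 of 10 were called higher and 0 lower by limma. Over all 22102 genes tested, 21.5% were called higher and 8.78% lower. CD11b- B cells had the same 4 genes higher, and Erap1 as the fifth, with 0 called lower, beside 25.8% of 20985 genes higher and 11% lower. The 0 lower calls stand against 1 of the 10 by edgeR, beside 18.1% and 20.9% of all genes in that fit, and 2 by DESeq2, beside 15.4% and 19.2%, so these counts are near the background. The groups lay apart for 5 of the 10 genes in CD11b+ B cells against PMs, beside 46.7% of all genes, and for 7 of the 10 in CD11b- B cells against PMs, beside 51.4%. The median log2 fold change of the 10 was 0.68 and 0.88, beside 0.25 and 0.24 over all genes, and fell to 0.24 and 0.40 with the median-ratio scale. Both comparisons use the same 3 PM libraries and are given side by side only. With the median-ratio scale the calls over all genes were 53.3% higher instead of 71.0% for CD11b+ B cells, and 52.4% instead of 70.1% for CD11b- B cells.

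H2-Q7 showed the widest gap. It was at 3.58, 4.93 and 3.74 FPKM in the PMs, from between 275 and 614 reads, and each B cell library, given above, held at least 73.2 FPKM. The log2 fold change was 4.10 ± 0.20 (SE) in CD11b+ B cells (adjusted p = 4.70e-06) and 4.27 ± 0.19 in CD11b- B cells (adjusted p = 3.17e-06). On the median-ratio scale it was 3.64 and 3.78. The PM level of H2-Q7 was 3.68%, 5.07% and 3.85% of the mean of CD11b- B cells, where the summed B cell markers of the same PM libraries were at 1.45%, 0.908% and 0.950%, and the part of B cells in it was not tested. H2-Q7 has near copies in the Q region, and the sources do not say how reads that fit several of them were counted. With H2-Q6, a near copy, and H2-Q7 joined, an alternative chosen after the data were seen, the log2 fold changes were 4.37 and 4.73, and that between the B cell groups was -0.36 (adjusted p = 0.681) in place of -0.17.

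H2-K1 was at 480, 483 and 579 FPKM in the PMs, below all 6 B cell libraries. Its log2 fold change was 1.34 ± 0.25 in CD11b+ B cells (adjusted p = 0.00503) and 1.40 ± 0.21 in CD11b- B cells (adjusted p = 0.00172). On the median-ratio scale it was 0.84 (adjusted p = 0.101) and 0.86 (adjusted p = 0.0491), so limma lost the call in CD11b+ B cells on that scale. The call was kept under 13 of 14 alternatives, edgeR (0.84, adjusted p = 0.0312) and DESeq2 (0.84, adjusted p = 0.00322) among them. H2-D1, at 2138, 2751 and 3079 FPKM in the PMs, overlapped both B cell groups, with log2 fold changes of -0.33 (-1.10 to 0.45) and -0.12 (-0.76 to 0.52). With 1 library left out the values ranged from -0.47 to -0.21 in CD11b+ and from -0.27 to -0.0042 in CD11b- B cells. DESeq2 called H2-D1 lower in both, at -0.86 and -0.68. H2-T23 was at 247, 249 and 218 FPKM in the PMs and overlapped both groups, with log2 fold changes of -0.13 (-0.55 to 0.30) and -0.19 (-0.60 to 0.22). It was called lower by edgeR and DESeq2 in both comparisons, at between -0.72 and -0.63. On the median-ratio scale limma called H2-T23 lower in CD11b- B cells and not in CD11b+ B cells. B2m was at 1996, 2303 and 1692 FPKM in the PMs, and its log2 fold changes of 0.25 (-0.53 to 1.03) and 0.11 (-0.47 to 0.69) turned to -0.25 and -0.43 on the median-ratio scale, not past the threshold on either.

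Tap1 was at 13.2, 15.6 and 8.53 FPKM in the PMs, and every B cell library held at least 83.3 FPKM. The log2 fold change was 2.76 ± 0.23 in CD11b+ B cells (adjusted p = 8.48e-05) and 2.73 ± 0.22 in CD11b- B cells (adjusted p = 8.29e-05). Tap2 was at 17.5, 28.0 and 21.6 FPKM in the PMs, below all B cell libraries, with log2 fold changes of 1.37 ± 0.21 (adjusted p = 0.00205) and 1.43 ± 0.20 (adjusted p = 0.00134). On the median-ratio scale both genes stayed past the threshold in both comparisons, Tap1 at 2.28 and 2.21 and Tap2 at 0.88 and 0.91. Tapbp was at 84.2, 89.4 and 101 FPKM in the PMs. It overlapped CD11b+ B cells, lay below CD11b- B cells, and passed the test in neither, with log2 fold changes of 0.30 and 0.44 (adjusted p = 0.282 and 0.0528) that turned to -0.20 and -0.09 on the median-ratio scale. In CD11b- B cells it was called higher under 4 of 14 alternatives, with a lowest adjusted p of 0.0426 and, without PM replicate 3, 0.0455.

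Erap1 was at 9.69, 7.13 and 7.55 FPKM in the PMs. It was called higher in CD11b- B cells, by 0.69 ± 0.22 (adjusted p = 0.0398), a call that was lost in 10 of 14 alternatives, among them the median-ratio scale (0.20), edgeR (0.26), DESeq2 (0.24) and the fits without CD11b- replicate 1 or 2 or PM replicate 2 or 3 (between 0.59 and 0.65). In CD11b+ B cells its log2 fold change was 0.32 (-0.36 to 0.99), with overlap, and -0.13 on the median-ratio scale. With 1 library left out this value ranged from 0.16 to 0.61. Nlrc5 was at 8.29, 7.45 and 2.35 FPKM in the PMs, from between 403 and 1847 reads, below every B cell library. Its log2 fold changes of 1.05 (adjusted p = 0.0766) and 1.07 (adjusted p = 0.0653) did not pass the test. Without PM replicate 3, the lowest of the 9 libraries, the values were 0.58 and 0.60, and without PM replicate 1 they were 1.32 (adjusted p = 0.0388) and 1.34 (adjusted p = 0.0353). On the median-ratio scale, with all libraries, they were 0.60 and 0.59, and DESeq2 gave 0.52 and 0.51.

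Ratios of genes within a library do not depend on the scale set between libraries. The ratio of H2-K1 to H2-D1 was 0.225, 0.175 and 0.188 in the PMs, 0.537, 0.570 and 0.568 in CD11b- B cells, and 0.565, 0.575 and 0.732 in CD11b+ B cells. PMs thus held less H2-K1 for each H2-D1 than all B cell libraries, by 2.85 to 3.18 times between means. The ratio of H2-Q7 to H2-D1 was between 0.00122 and 0.00179 in the PMs and between 0.0364 and 0.0457 in the B cells. The ratio of Tap1 to Tap2 was 0.751, 0.558 and 0.395 in the PMs, 1.48, 1.51 and 1.24 in CD11b- B cells, and 1.54, 1.497 and 1.47 in CD11b+ B cells. By RNA, Tap2 was thus above Tap1 in the PMs and below it in every B cell library. Reads of Psmb9, which overlaps Tap1 on the other strand and was higher in B cells, may be part of the Tap1 count, and their part in this ratio was not tested. For these ratios PMs and B cells did not overlap, and the exact permutation test (two-sided, 3 libraries against 3) gave p = 0.1, the smallest that it can give. Between the B cell groups each of these ratios overlapped (exact permutation p = 0.3, 0.8 and 0.5). The sum of H2-K1 and H2-D1 over B2m was 1.31, 1.40 and 2.16 in the PMs, 1.68, 1.64 and 1.997 in CD11b- and 1.33, 1.93 and 1.17 in CD11b+ B cells, with overlap between all groups.

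**Figure D4:**
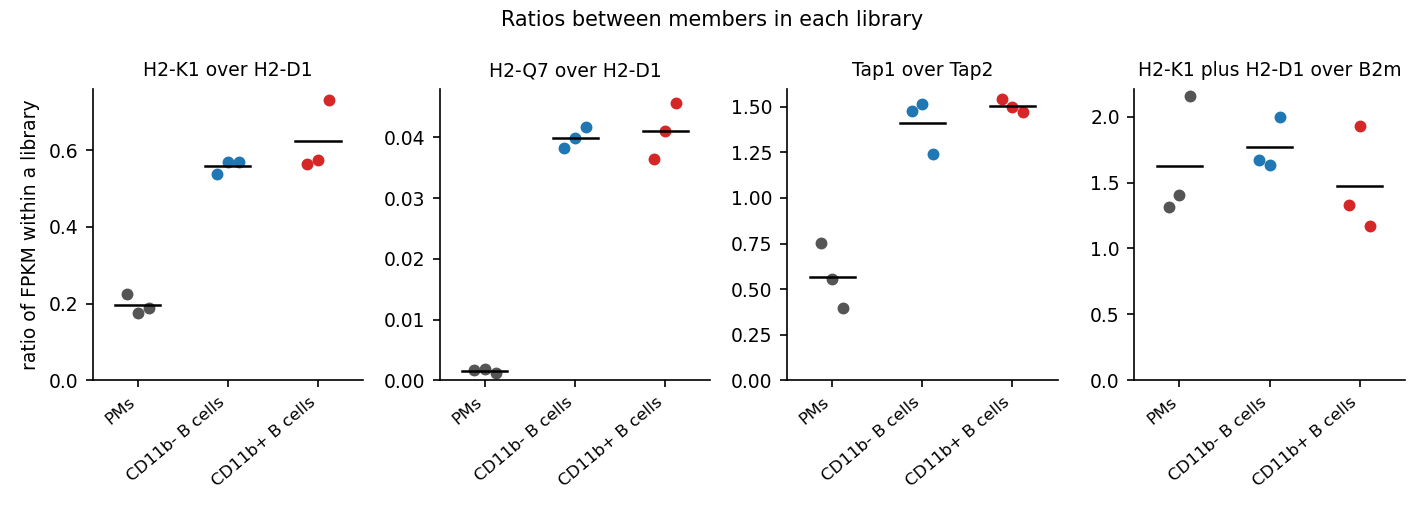
Ratio of FPKM between members (y axis, linear from 0) in each library of the 3 groups (x axis), 1 point a library and a black line at the mean. PMs lie below both B cell groups for H2-K1 over H2-D1, H2-Q7 over H2-D1 and Tap1 over Tap2, and overlap them for the classical heavy chains over B2m.

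Between the B cell groups, 0 of 58 further genes of the pathway lists passed the test by limma and 0 by edgeR, while DESeq2 called Isg15 higher. At an unadjusted p under 0.05 stood 13 of the 58 (22.4%), 7 of them higher and 6 lower, beside 7.68% of all genes. Of the other class I heavy chains, 9 of 16 in the table were tested, with a median log2 fold change of -0.02. H2-Q6 was at 113 ± 21 FPKM in CD11b+ against 175 ± 48 FPKM in CD11b- B cells (adjusted p = 0.600), and H2-Q5 at 135 ± 23 against 190 ± 32 FPKM (adjusted p = 0.625). H2-T24 moved the other way, at 34.2 ± 3.7 against 26.6 ± 3.6 FPKM (adjusted p = 0.644). The libraries did not overlap for these 3 genes, nor for H2-Q10, which was at most at 0.326 FPKM in every B cell library. Over all genes tested, 14.9% did not overlap. H2-Q5 and H2-Q6 may share reads, since the sources do not say how reads that fit several genes were counted. Of the immunoproteasome and its activator, which cut the peptides, 0 of 6 passed, with Psme2 at 198 ± 23 against 181 ± 30 FPKM, Psmb10 at 128 ± 16 against 127 ± 16 FPKM and Psme1 at 131 ± 1.6 against 125 ± 8.3 FPKM. Psmb9, a catalytic subunit, was at 100.5 ± 4.2 against 79.8 ± 3.3 FPKM without overlap, a log2 fold change of 0.33 (adjusted p = 0.590). The most abundant chaperones, Pdia3 at 191 ± 51 against 157 ± 24 FPKM, Bcap31 at 204 ± 14 against 205 ± 11 FPKM and Calr at 114 ± 19 against 106 ± 3.9 FPKM, did not pass either. Tapbpl, on the same list, was at 34.5 ± 2.1 against 47.8 ± 9.7 FPKM without overlap (adjusted p = 0.614). Of the 5 class I-like molecules tested, 0 passed and 2 had a log2 fold change above 0, both without overlap. These were Fcgrt, at 11.6 ± 0.94 against 8.42 ± 0.24 FPKM (adjusted p = 0.595), and Hfe, at 1.02 ± 0.39 against 0.187 ± 0.181 FPKM (adjusted p = 0.460). Among regulators, the NF-kB subunit Rela was at 50.8 ± 5.6 FPKM in CD11b+ and 64.0 ± 4.6 FPKM in CD11b- B cells (adjusted p = 0.643). Rfx5 was at 8.05 ± 1.24 against 11.3 ± 1.5 FPKM (adjusted p = 0.643), and neither overlapped. Of the 13 regulators, 3 had a log2 fold change above 0. The peptidases Blmh, Tpp2 and Lap3 lay at 17.8 ± 3.3, 9.70 ± 4.16 and 15.8 ± 5.7 FPKM in CD11b+ and at 19.4 ± 2.3, 13.1 ± 1.6 and 10.6 ± 5.5 FPKM in CD11b- B cells. The interferon-stimulated list had a median of 0.30 and 0 of 13 calls, with Irf7 at 26.1 ± 4.4 against 18.2 ± 1.7 FPKM and Gbp2 at 20.99 ± 5.36 against 18.7 ± 9.4 FPKM. Its nearest, Isg15, a ubiquitin-like protein, had a log2 fold change of 1.15 (adjusted p = 0.0807).

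Against PMs, 7 of the 9 other heavy chains tested were higher in CD11b+ B cells and 7 of 8 in CD11b- B cells, with 0 lower, beside 21.5% and 25.8% of all genes. On the median-ratio scale, where 13.2% and 16.2% of all genes were higher and 11.6% and 14.7% lower, 6 were higher in each, without H2-T24. Near copies among these heavy chains may share reads, so the calls may not be separate. H2-M3, which presents formylated peptides, was at 34.4 ± 7.4 FPKM in the PMs, 135 ± 18 FPKM in CD11b+ and 161 ± 15 FPKM in CD11b- B cells. H2-Q5 was at 4.72 ± 1.78 FPKM and H2-Q6 at 2.64 ± 0.71 FPKM in the PMs. Of the 5 class I-like molecules tested, Cd1d1 and Cd1d2, which present lipids, were higher, and Fcgrt, the neonatal Fc receptor, and Hfe, a regulator of iron uptake, were lower in both comparisons, on both scales. Fcgrt was at 170 ± 54 FPKM in the PMs, 11.6 ± 0.94 FPKM in CD11b+ and 8.42 ± 0.24 FPKM in CD11b- B cells, Cd1d1 at 8.44 ± 5.02, 55.9 ± 5.0 and 63.1 ± 9.5 FPKM, and Hfe at 19.6 ± 4.6, 1.02 ± 0.39 and 0.187 ± 0.181 FPKM. Of the chaperone and loading genes, Tapbpl, a relative of tapasin, was higher in both, and Pdia3, which works beside tapasin, was called lower in CD11b- B cells only (log2 fold change -1.06), while its -0.81 in CD11b+ B cells did not pass (adjusted p = 0.0626); the difference between these was not past the threshold (adjusted p = 0.727). With median-ratio scaling Tapbpl was called in neither, Pdia3 and Canx were lower in both, and Calr was lower in CD11b- B cells.

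Of the 6 immunoproteasome and activator genes, Psmb8, Psmb9 and Psme3 were higher in both comparisons and 0 were lower. Of the immunoproteasome and activator genes, 2 were called in each comparison with median-ratio scaling, Psmb8 and Psmb9 in CD11b+ and Psmb8 and Psme3 in CD11b- B cells. Psmb9, which shares a promoter region with Tap1, had log2 fold changes of 1.63 and 1.30, while Psmb10 had -0.24 and -0.25 and did not pass by limma, though it was called lower by DESeq2 in both and by edgeR in CD11b- B cells. Of the 13 regulators, 7 were higher in CD11b+ and 9 in CD11b- B cells, with 0 lower, beside 21.5% and 25.8% of all genes higher. On the median-ratio scale 3 were higher in each (Rfx5, Nfyb and Ciita), beside 13.2% and 16.2% of all genes, and Irf2 was lower. Rfx5, a factor of the X box, had log2 fold changes of 2.38 and 2.83, and Nfyb, a factor of the Y box, 2.47 in both. Ciita, the relative of Nlrc5 that acts on class II genes, was at 4.58 ± 0.85 FPKM in the PMs, 43.3 ± 2.9 FPKM in CD11b+ and 44.0 ± 3.4 FPKM in CD11b- B cells. Irf1, at 36.7 ± 14.9, 40.04 ± 0.57 and 49.6 ± 9.6 FPKM, did not pass in either comparison. Of the interferon-stimulated genes, Ifit1, Ifit2, Ifit3 and Gbp4 were higher in both, and Oas1a, at 36.7 ± 5.7 FPKM in the PMs against 12.4 ± 3.0 and 13.3 ± 0.81 FPKM, was lower in both, with Oasl2 lower in CD11b- B cells. With median-ratio scaling Oas1a and Oasl2 were lower in both, Isg15 was lower in CD11b- B cells, and Ifit3 lost its call there. Of the other peptidases, Blmh was higher in both and Lap3 in CD11b+ B cells, with 0 lower, and on the median-ratio scale only Blmh in CD11b- B cells was called.

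**Figure D5:**
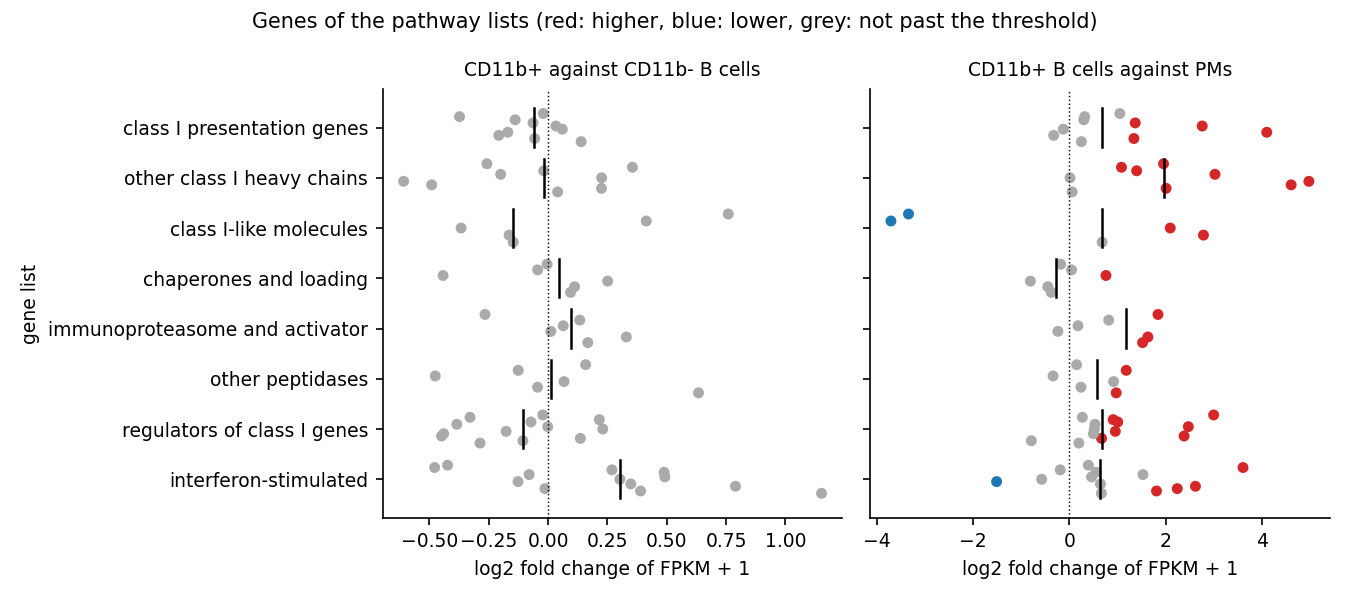
Log2 fold change of FPKM + 1 (x axis) of each tested gene of 8 lists (y axis) in CD11b+ against CD11b- B cells on the left and CD11b+ B cells against PMs on the right, with a black line at the median. No point passes the test on the left, and on the right the other heavy chains have the highest median, 1.96.

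Over the 6 B cell libraries, the members did not move as 1 block: Pearson's r was above 0 for 30 of their 45 pairs, with a median of 0.32 and a range from -0.97 to 0.96. The genes whose pattern over these libraries was most like the mean of the 10 standardised members were Haghl, Pias4, Hsf1, Gm43196 and Rasal1, with r between 0.98 and 0.99 among 11976 genes. All points share the 6 libraries, their depth and their sort, so this likeness is a description only.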

How the data were processed

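RNA was measured by SMART-seq HT full-length cDNA sequencing in 9 libraries of sorted mouse cells, 3 in each of 3 groups. Per the processing notes of the submitters, reads were trimmed with Trim Galore 0.4.4, Trimmomatic 0.36 and cutadapt 1.16, aligned with STAR 2.7.2b and counted per gene with featureCounts 1.6.1. The notes name both GRCm38 and GRCm39, so positions here were taken from GENCODE M21 (GRCm38) by Ensembl ID, with 52046 of 55322 IDs matched. The authors deposited 2 tables: FPKM of 55322 genes, and a signal table of counts divided by DESeq2 1.20.0 size factors for 11063 genes, chosen by a p-value in the study, which holds 6 of the 10 members and was used here only to recover whole reads. All values of both tables came out as whole reads within 0.05 of a read.

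The main test was limma 3.58.1 (R 4.3.3; lmFit, eBayes with trend, two-sided) on log2(FPKM + 1) over the 6 libraries of a comparison, leaving out genes whose mean FPKM was under 0.05. Benjamini-Hochberg adjustment ran over all genes tested, and the threshold was 0.05. A fold change on this scale understates the change of low genes. edgeR 4.0.16 and DESeq2 1.42.0 on the recovered reads were alternatives. All were run on simulated counts with known changes and the same spread for every gene, where only limma had to meet a set recovery. The study plots such values with SDs, its sign for biological replicates, but the sources do not say whether each library came from a separate mouse, so p-values measure the spread between these libraries. Replicate numbers of the B cell groups share no stated mouse or day, and the deviations of libraries with the same title number correlated at between -0.02 and 0.29, so the main fits hold no block.

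The members and lists were chosen with earlier results of these data known. All 10 members are named. Of the other pathway lists, counts per direction are given, and of the marker lists summed levels, with the calls between the B cell groups. Of each pathway list the text names the 3 genes of highest mean FPKM and some further genes chosen after their values were seen. The 5 genes most like the members by Pearson's r are named too. One marker gene of the B cell list is not reported here and was left out of its sums.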

Additional observations from a re-analysis of the deposited data

How the results depend on the processing

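Between CD11b+ and CD11b- B cells, 0 members were called under all 15 alternatives. The direction of 6 members, all within 0.14 of 0, turned when 1 library was left out: H2-K1 ranged from -0.15 to 0.039, Tap1 from -0.0091 to 0.070, Tap2 from -0.12 to 0.020, Nlrc5 from -0.047 to 0.027, H2-T23 from -0.043 to 0.17 and B2m from -0.0034 to 0.29. Genes called higher, 15 in all, numbered 34 (and 3 lower) with a pseudocount of 0.1, 2 with no filter, 31 with a minimum of 1 FPKM, 31 (and 5 lower) with all 9 libraries in 1 fit, 42 by edgeR and 328 (and 64 lower) by DESeq2, and between 3 and 40 with 1 library left out. The replicate block by title number called 16, and by description number 0, with 0 members in either. The numbers are no stated pairing. By description only 2 pairs share a number; their deviations correlated at 0.29 and 0.21, and each of these 4 libraries correlated best with its own number, a hint from the data and not the design, while the remaining pair by title correlated at -0.02. The 3 neutrophil calls were among those lost under the block by description number. The median log2 fold change of the neutrophil markers was 3.56 there against 4.16 in the main fit. For the comparisons with PMs the block by description number was not run, since fewer than 2 numbers are shared, and the block by title number changed the call of Erap1 in CD11b- B cells only (adjusted p = 0.0622).

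Against PMs, H2-Q7, Tap1 and Tap2 were called higher under every alternative. For CD11b+ B cells, genes called higher fell from 4760 to 2915 with median-ratio scaling and 2850 with edgeR, genes called lower rose from 1940 to 2556 with median-ratio scaling and 3418 with DESeq2, which also changed the test and the filter, and genes called higher with 1 library left out numbered between 3152 and 4919. For CD11b- B cells, genes called higher fell from 5404 to 3397 and 3200, and genes called lower rose from 2306 to 3083 with median-ratio scaling and 4030 with DESeq2. Members called lower numbered 1 (H2-T23) with edgeR and 2 (H2-D1, H2-T23) with DESeq2 in both, near the shares of all genes called lower in those fits (18.1% and 20.9%, 15.4% and 19.2%), and 1 (H2-T23) with median-ratio scaling for CD11b- B cells. With median-ratio scaling, edgeR and DESeq2 in turn, values of CD11b+ B cells turned to -0.25, -0.25 and -0.26 for B2m, -0.20, -0.20 and -0.20 for Tapbp, and -0.13, -0.091 and -0.096 for Erap1. In CD11b- B cells they turned to -0.43, -0.43 and -0.45 for B2m and -0.094, -0.085 and -0.10 for Tapbp, and B2m ranged from -0.0042 to 0.22 with 1 library left out. The cause was not tested. Nlrc5 was called with a minimum of 1 FPKM, with all 9 libraries in 1 fit and without PM replicate 1 in both comparisons. Read depth was not varied, and the lowest member value rests on 275 reads.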
